A study of Mus musculus with 2 samples.

Results

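The genes that turn arachidonic acid into prostaglandins and leukotrienes were read out in single cells of allergic mouse skin, through 10 named genes of the 35208 in the matrix. They were the cyclooxygenases Ptgs1 and Ptgs2, the prostaglandin synthases Ptges, Hpgds and Ptgds, the 5-lipoxygenase pair Alox5 and Alox5ap, the leukotriene synthases Lta4h and Ltc4s, and Alox15. The genes were chosen by name, for their place in these pathways, and with earlier results of these data known. Cells came from the ear skin of male BALB/c mice of 7 to 12 weeks, either wild-type (WT) or Ccr2-/-, that is, lacking the chemokine receptor that lets inflammatory monocytes enter tissue. Mice of both genotypes were given 300 µg of anti-TNP IgE intravenously (TNP is a hapten), and on the next day 10 µg of TNP-coupled ovalbumin (TNP-OVA) into the ear skin, which elicits IgE-dependent chronic allergic inflammation (IgE-CAI). Ears were taken on day 3 or day 5, and the 4 pools (genotype by day) were stained with 1 hashtag antibody each, mixed, and 10000 of the mixed cells were loaded into the microwells of a BD Rhapsody for 1 library made by TAS-Seq. Each combination of genotype and day is thus a single pool, of an unstated number of mice. Every test below uses sums per pool, so none measures the spread between mice.

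Cyclooxygenases convert arachidonic acid to prostaglandin H2, which the terminal synthases turn into prostaglandin E2 or prostaglandin D2. 5-Lipoxygenase, with its membrane partner FLAP (Alox5ap), makes leukotriene A4, from which leukotriene A4 hydrolase makes the neutrophil attractant leukotriene B4 and leukotriene C4 synthase makes the first of the cysteinyl leukotrienes. Mast cells are the textbook source of prostaglandin D2 and cysteinyl leukotrienes in IgE-triggered reactions, and granulocytes, macrophages and stromal cells each carry parts of the same pathways. On GRCm38 (GENCODE M21 annotation) the genes span chr2:36230426-36252272 (Ptgs1), chr1:150100031-150108227 (Ptgs2), chr2:30889471-30929863 (Ptges), chr6:65117293-65144908 (Hpgds), chr2:25466709-25470046 (Ptgds), chr6:116410077-116461178 (Alox5), chr5:149264767-149288153 (Alox5ap), chr10:93453411-93484875 (Lta4h), chr11:50236461-50238616 (Ltc4s) and chr11:70344152-70352031 (Alox15).

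Values are reads, not unique molecules, and a level is given as CPM, the reads of a gene per 1000000 reads of the summed cells. PCR copies were counted separately, so all intervals cover counting error only. After hashtag assignment 7118 of 8953 barcodes were kept, with 68064673 to 162572556 reads per pool, and no cell was in more than 1 pool. Ccr2, the deleted gene, had 358 and 350.1 CPM over all cells of the WT pools of day 3 and day 5, and 13.5 and 11.8 CPM in the Ccr2-/- pools, so reads of it were fewer but not absent there. In the cells assigned below to macrophages it had 891.7 and 614.3 CPM in the WT pools, and 78.5 and 24.1 CPM in the Ccr2-/- pools. Each cell was assigned to a type by its marker genes, none of which is among the 10 genes, and 3940 cells fell into the 6 types compared: 1126 neutrophils, 59 eosinophils, 114 mast cells, 149 basophils, 849 macrophages and 1643 fibroblasts. The WT day 5 pool held only 5 neutrophils, 3 eosinophils, 9 mast cells and 2 basophils, and its values for these types are given but stayed out of the tests. The eosinophil gate was the weakest: Epx, a defining granule gene, had 0 reads, 7 of its 8 markers had reads with a sum of 3405 CPM, and the 11 macrophage markers summed to 2667 CPM and the dendritic cell markers to 4141 CPM in the same cells. The part of other cells in the eosinophil values was not tested. Basophils carried mast cell markers at a sum of 4729 CPM, beside 90801 CPM in mast cells and 11380 CPM of their own markers.

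The reads of each gene lay in different cells. Neutrophils held 41.3% of all Ptgs2 reads, fibroblasts 69.7% of the Ptges reads and 52.1% of the Lta4h reads, and macrophages 61.6% of the Hpgds reads, 40.7% of the Alox5 reads, 49.7% of the Alox5ap reads and 36.2% of the Ltc4s reads. Of the 468398572 reads of all kept cells, fibroblasts held 221104772, cells that passed no gate 98986508, macrophages 56983127 and neutrophils 12255362. The Lta4h share of fibroblasts was near their share of all reads, with 58.7 CPM beside 53.2 in all cells. Alox15 differed from the others in that 47.8% of its reads lay in cells that passed no gate, beside 24.7% in basophils and 14% in eosinophils.

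**Figure D1:**
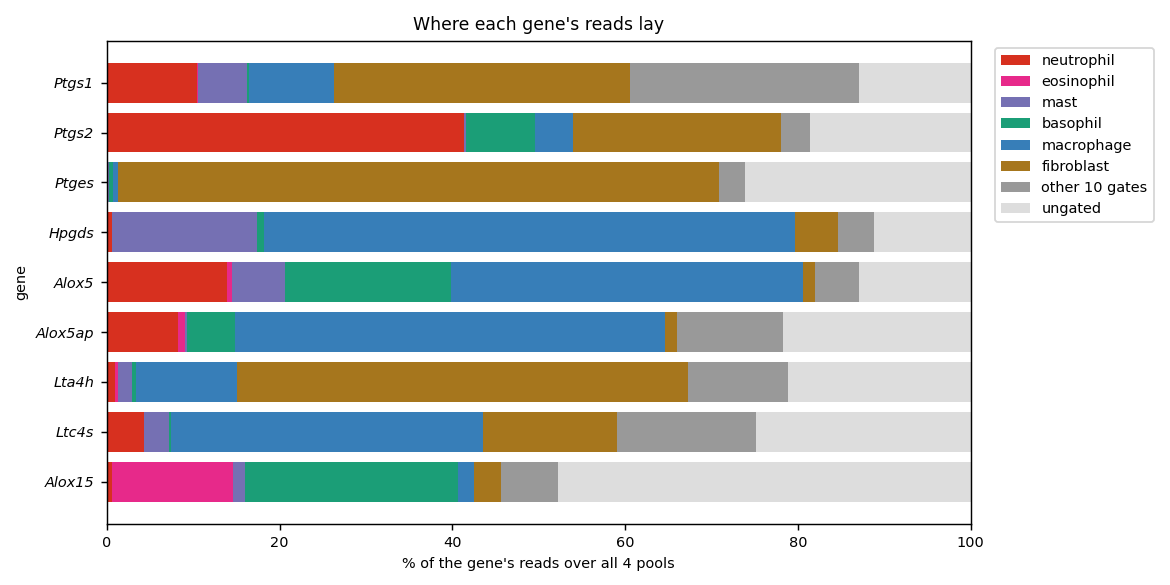
Share of each gene's reads, in percent of its reads over all 4 pools, that lay in cells of each gated type, in the other 10 gates and in ungated cells. Ptges and Lta4h reads lay mostly in fibroblasts and Hpgds reads mostly in macrophages, which also held 40.7% of the Alox5 and 49.7% of the Alox5ap reads, and 47.8% of the Alox15 bar is ungated. Fibroblasts held 221104772 of the 468398572 reads of all genes, and the Lta4h level was 58.7 CPM in them beside 53.2 in all cells.

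Each type was compared with the mean of the other 5 by edgeR's quasi-likelihood test on reads summed per type and pool, with the pool as covariate, and p-values were adjusted over 16221 genes. There were 20 sums, from 4 pools for macrophages and fibroblasts and from 3 for the other types. Of the 10 genes, 9 passed the filter on low counts and Ptgds did not. A gene is called higher or lower where the adjusted p was under 0.05. In neutrophils 4 of the 9 were called higher, where 16.8% of all genes were, and 1 lower, where 8.72% were. In eosinophils the counts were 3 higher, beside 2.15% of all genes, and 0 lower, beside 4.03%. Mast cells had 2 higher and 2 lower, beside 6.5% and 2.58% of all genes. Basophils had 5 higher, where 5.59% of all genes were, and 0 lower, where 1.45% were. Macrophages had 3 higher, beside 13.2%, and 2 lower, beside 2.07%. Fibroblasts had 1 higher, beside 31.2%, and 4 lower, beside 6.74%.

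The median log2 fold change of the 9 genes was 1.15 in neutrophils, -1.75 in eosinophils, 0.34 in mast cells, 3.07 in basophils, -0.31 in macrophages and -1.08 in fibroblasts. Over all genes tested the median was 0.19, -0.95, 0.19, 0.05, 0.60 and 0.84 in the same order, and with library sizes in place of TMM scaling it was -0.16, -0.29, 0.42, 0.03, 0.53 and 0.47. The share of all calls that were higher was 74.7%, and it was 57.7% with DESeq2, 64.1% with Leiden clusters in place of gates and 68.7% with library sizes.

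**Figure D2:**
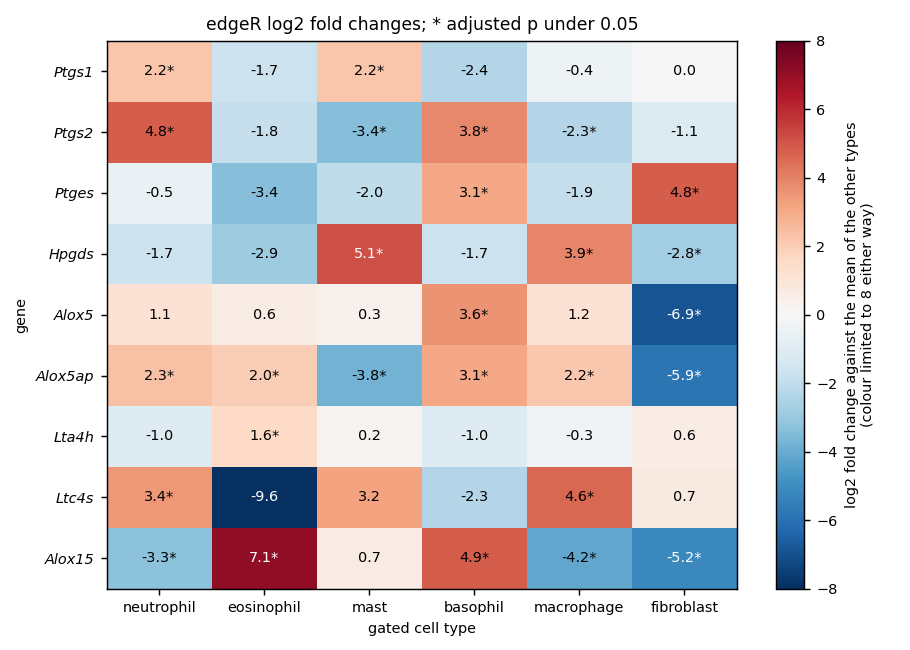
Log2 fold change of each gene in each gated type against the mean of the other 5 types (edgeR), with a star where the adjusted p was under 0.05. Ptgs2 is positive in neutrophils and basophils, Hpgds in mast cells and macrophages, and Ptges in fibroblasts and basophils. The Ltc4s value in eosinophils comes from 0 reads and depends on the prior count, and the Ltc4s values of the other types are set against a mean that includes it.

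Ptgs2, the inducible cyclooxygenase COX-2, was highest in neutrophils and basophils. In neutrophils its level was 1862 CPM in WT day 3, 2331 in Ccr2-/- day 3 and 2645 in Ccr2-/- day 5, and it was 5602 in the 5 cells of WT day 5. In basophils it was 1217 CPM in WT day 3, 1762 in Ccr2-/- day 3 and 1664 in Ccr2-/- day 5, and 358 in the 2 cells of WT day 5. Every neutrophil pool in the test lay above every basophil pool, but the difference between these neighbours did not pass (log2 0.85 ± 0.61 SE, adjusted p = 0.387), while 11.2% of all genes differed between the same types. Both types lay far above the rest: fibroblasts had 64.8 to 90.8 CPM over the 4 pools, macrophages 20.9 to 74.3, eosinophils 21.4 to 301 and mast cells 3.54 to 49.1. Against the mean of the other types, Ptgs2 was higher by 4.85 ± 0.39 (log2 fold change ± SE) in neutrophils, with an adjusted p of 8.96e-09, and by 3.83 ± 0.39 in basophils, with an adjusted p of 7.79e-07. It was lower in mast cells (-3.44 ± 0.63, adjusted p = 9.75e-04) and in macrophages (-2.32 ± 0.52, adjusted p = 0.0046). The macrophage call was lost without the Ccr2-/- day 3 pool (adjusted p = 0.0675).

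Shares of cells again set neutrophils and basophils apart. For shares, cells with fewer than 5000 reads were left out and the others thinned to 5000 reads each, which kept 1029 of 1126 neutrophils, 30 of 59 eosinophils, 107 of 114 mast cells, 147 of 149 basophils, 839 of 849 macrophages and 1612 of 1643 fibroblasts. The 30 eosinophils comprised 9 of the 13 from WT day 3, 2 of the 3 from WT day 5, 3 of the 11 from Ccr2-/- day 3 and 16 of the 32 from Ccr2-/- day 5. On this footing 73.4% of neutrophils had a Ptgs2 read (755 of 1029, exact 95% interval 70.6 to 76.1%), as did 50.3% of basophils (74 of 147, 42.0 to 58.7%). The share was 16.9% in fibroblasts, 16.7% in eosinophils, 10.4% in macrophages and 5.61% in mast cells. Neutrophils were shallow, with a median of 9519 reads per cell before thinning beside 105002 in fibroblasts, so the unthinned shares were closer, at 75.0% and 53.3%. No single cell carried the level, since the cell with the most reads gave 1.24% of the neutrophil Ptgs2 reads.

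Over all cells of a pool, Ptgs2 stood at 80.7 CPM in WT day 3, 85.6 in WT day 5, 153.9 in Ccr2-/- day 3 and 249.8 in Ccr2-/- day 5. Neutrophils held 13.6%, 7.09%, 35.6% and 55.9% of these reads, and made up 3.44%, 0.482%, 15.8% and 30.7% of the cells of the pools, in the same order. Within the fibroblast gate the pools of the 2 genotypes overlapped.

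The 250 bases before the start of Ptgs2 and of Alox5, the first enzymes of the prostaglandin and leukotriene branches and both called higher in basophils, are shown with the letters of 9 short motifs searched on both strands. They come from RefSeq on GRCm38.p6, and both are read 5′ to 3′ on the strand of the gene, with matches in capitals. The Ptgs2 window is chr1:150099781-150100030 (plus strand) and the Alox5 window chr6:116461179-116461428 (minus strand).
Ptgs2: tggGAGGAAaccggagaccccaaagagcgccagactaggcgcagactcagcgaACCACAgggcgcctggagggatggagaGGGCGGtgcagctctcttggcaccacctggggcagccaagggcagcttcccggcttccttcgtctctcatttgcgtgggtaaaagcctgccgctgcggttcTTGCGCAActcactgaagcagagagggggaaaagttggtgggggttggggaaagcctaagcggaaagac
Alox5: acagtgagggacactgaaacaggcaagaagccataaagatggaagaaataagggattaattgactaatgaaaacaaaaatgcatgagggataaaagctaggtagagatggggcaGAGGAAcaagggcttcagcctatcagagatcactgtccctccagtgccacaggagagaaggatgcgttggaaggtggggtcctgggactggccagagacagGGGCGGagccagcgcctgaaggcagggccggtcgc
In the Ptgs2 window the capitals mark, from the left, GAGGAA (a PU.1 motif), a match on the other strand to TGTGGT (a RUNX motif), then GGGCGG (an Sp1 motif), and TTGCNNAA (a C/EBP motif) at 69 bases before the start. In the Alox5 window they mark the PU.1 and the Sp1 letters, the latter 35 bases before the start. Of 32851 mouse promoters of the same length, 23.3% held the PU.1 letters, 14% the RUNX, 32.7% the Sp1 and 9.56% the C/EBP letters. The other motifs searched were in neither window. They were TATAAA (the TATA box, in 12.4% of promoters), TGACGTCA (the CRE, in 1.55%), then AGATAA (bound by GATA factors, in 9.99%), the E box CACGTG (in 6.02%) and an NF-kB motif (in 0.356%). No matches overlapped each other. The Ptgs2 window overlaps the first exon of the antisense noncoding gene Ptgs2os. A match describes letters only.

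Ptgs1, the constitutive cyclooxygenase COX-1, had its highest levels among the 6 types in mast cells and neutrophils. Mast cells had 7.08 CPM in WT day 3 (2 reads in 1 cell of 11), 0 in the 9 cells of WT day 5, 92.5 in Ccr2-/- day 3 and 113.8 in Ccr2-/- day 5. Neutrophils had 3.80 CPM in WT day 3 (2 reads in 1 cell of 53), 81.4 in the 5 cells of WT day 5 (6 reads), 69.1 in Ccr2-/- day 3 and 70.3 in Ccr2-/- day 5. In both types the level rested on the Ccr2-/- pools, and in mast cells 1 cell gave 23.5% of the reads. Ptgs1 was called higher in neutrophils (2.24 ± 0.72, adjusted p = 0.0257) and in mast cells (2.24 ± 0.70, adjusted p = 0.0492). Each call was lost without either Ccr2-/- pool. For neutrophils the adjusted p was 0.319 without day 3 and 0.103 without day 5. For mast cells it was 0.418 and 0.243, and 0.0606 without the WT day 5 pool. Over all alternatives, the neutrophil call was kept under 7 of 11 and the mast cell call under 6 of 11. The remaining types had 13.6 CPM (macrophages), 12.3 (fibroblasts), 8.54 (eosinophils) and 4.74 (basophils) over all pools. The 17 mast cell-gated barcodes that could be given to no pool, for too few hashtag reads or several hashtags, had 475.4 CPM of Ptgs1, from 285 reads. Doublets between pools may be among them. Outside the 6 types, blood endothelial cells had 134 CPM and 17.7% of all Ptgs1 reads. The antisense gene Gm43621 touches an exon of Ptgs1, and whether reads were counted by strand is not given in the sources used here.

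Ptges encodes the inducible microsomal prostaglandin E synthase and was read mainly in fibroblasts. The fibroblast pools had 123.0 CPM in WT day 3, 100.4 in WT day 5, 184.5 in Ccr2-/- day 3 and 123.2 in Ccr2-/- day 5, against 1.16 to 5.06 in macrophages, 0 to 8.17 in neutrophils and 0 to 6.76 in mast cells. Against the other types it was higher by 4.83 ± 0.61 in fibroblasts (edgeR, adjusted p = 3.46e-06). At 5000 reads per cell, 37.1% of fibroblasts had a read (598 of 1612, 34.7 to 39.5%), beside 1.36% of neutrophils and 1.43% of macrophages. Basophils were also called higher (3.07 ± 0.75, adjusted p = 0.0124), but this rested on few cells. Their pools had 103.6 CPM in WT day 3, 0 in WT day 5, 104.2 in Ccr2-/- day 3 and 2.80 in Ccr2-/- day 5, only 13 of 149 cells had a read, and 1 cell gave 56.8% of the reads. Fibroblast markers summed to 6101 CPM in these basophils, the highest sum among the other 5 types, and the part of fibroblast RNA in the value was not tested. Without cells of over 100000 reads the adjusted p for basophils was 0.323, and the call was also lost with Leiden clusters and without either day 3 pool. Perichondrial cells, outside the 6 types, had 67.5 CPM.

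Hpgds, the hematopoietic prostaglandin D synthase, was highest in mast cells, followed by macrophages. Mast cells had 134.5 CPM in WT day 3, 164.3 in the 9 cells of WT day 5, 123.4 in Ccr2-/- day 3 and 240.1 in Ccr2-/- day 5. Macrophages had 38.3, 52.0, 69.1 and 109.4 CPM in the same order of pools. Every mast cell pool in the test lay above every macrophage pool, but this difference did not pass (1.0 ± 0.66, adjusted p = 0.467), while 8.11% of all genes differed between these types. The step from macrophages to basophils, the next type by level, did pass (4.72 ± 0.86, adjusted p = 0.00106, where 13.4% of all genes differed). Against the mean of the other types Hpgds was higher in mast cells by 5.14 ± 0.50 (adjusted p = 3.33e-07) and in macrophages by 3.93 ± 0.48 (adjusted p = 7.69e-06), and lower in fibroblasts (-2.78 ± 0.75, adjusted p = 0.00567). The fibroblast call was lost at a hashtag ratio of 10 and without the Ccr2-/- day 3 pool. At 5000 reads per cell 40.2% of mast cells had a read (43 of 107, 30.8 to 50.1%), as did 14.2% of macrophages (11.9 to 16.7%) and 0.682% of fibroblasts. Basophils had 0 CPM in WT day 3, 2.71 in Ccr2-/- day 3 and 5.61 in Ccr2-/- day 5, and 28 of their 40 reads came from the 2 cells of WT day 5.

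Ptgds, the lipocalin-type prostaglandin D synthase, was close to absent. It had 73 reads in 10 cells of all 7118, 42.5% of them in perichondrial and 37.0% in lymphatic endothelial cells. Of the 6 types, neutrophils and fibroblasts had 1 read each, and the others had 0. In macrophages a floor of 3 reads stands at 0.0526 CPM.

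Alox5 encodes 5-lipoxygenase, the first enzyme of leukotriene synthesis. Its level was highest in basophils, with 205.9 CPM in WT day 3, 188.8 in the 2 cells of WT day 5, 451.4 in Ccr2-/- day 3 and 468.9 in Ccr2-/- day 5. Eosinophils (18.0 to 221 CPM over 3 pools), mast cells (0 to 188), neutrophils (55.5 to 112.5) and macrophages (30.0 to 132.2 over 4 pools) followed with overlapping pools. Fibroblasts had 0.169 to 0.849 CPM, and the step down from macrophages to fibroblasts passed (6.73 ± 0.84, adjusted p = 9.59e-06, where 17.9% of all genes differed). Alox5 was called higher in basophils (3.61 ± 0.48, adjusted p = 2.79e-05) and lower in fibroblasts (-6.90 ± 0.82, adjusted p = 1.82e-06). At 5000 reads per cell 57.8% of basophils had a read (85 of 147, 49.4 to 65.9%), beside 16.7% of eosinophils, 13.7% of macrophages, 11.7% of neutrophils, 9.35% of mast cells and 0.372% of fibroblasts. Mast cells had reads only in the Ccr2-/- pools, at 65.1 CPM on day 3 and 188.0 on day 5. These came from 20 cells, 1 of which gave 37.6% of them, and the WT mast cells numbered 20 in all.

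Alox5ap encodes FLAP, which presents arachidonic acid to 5-lipoxygenase. Basophils had 903 CPM in WT day 3, 454 in the 2 cells of WT day 5, 1095 in Ccr2-/- day 3 and 1055 in Ccr2-/- day 5. Macrophages had 621, 645, 605 and 529 CPM in the same order. Neutrophils had 777 CPM in WT day 3, 394 in Ccr2-/- day 3 and 495 in Ccr2-/- day 5, and eosinophils 797, 462 and 1330. These 4 types overlapped, and none of the 3 steps between them in the order of levels passed. Mast cells lay far below (0 to 41.9 CPM), and the step from neutrophils to mast cells passed (5.08 ± 0.71, adjusted p = 5.71e-05, where 22.3% of all genes differed). Fibroblasts had 2.47 to 6.77 CPM. Against the other types Alox5ap was higher in basophils (3.12 ± 0.38, adjusted p = 8.68e-06), neutrophils (2.34 ± 0.40, adjusted p = 1.64e-04), macrophages (2.18 ± 0.37, adjusted p = 3.57e-04) and eosinophils (1.97 ± 0.42, adjusted p = 0.00892). It was lower in mast cells (-3.76 ± 0.62, adjusted p = 2.90e-04) and fibroblasts (-5.85 ± 0.61, adjusted p = 3.99e-07). The eosinophil call was lost without the Ccr2-/- day 5 pool (adjusted p = 0.143). Dendritic cells, outside the 6 types, had 691 CPM. The antisense gene Gm19719, which touches an exon of Alox5ap, had 164 reads beside 70868.

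At 5000 reads per cell a read of Alox5ap was found in 83.3% of eosinophils (25 of 30), 79.6% of basophils, 78.2% of macrophages, 39.3% of neutrophils, 6.54% of mast cells and 1.55% of fibroblasts. Thinning kept a larger part of the eosinophils of WT day 3, where dendritic cell markers summed above eosinophil markers, than of the Ccr2-/- ones. Of all 59 gated eosinophils, 5 lay in a macrophage and 2 in a dendritic cell Leiden cluster. The part of other cells in the eosinophil share was not tested. Of the basophils with an Alox5 read, 85.9% also had an Alox5ap read (73 of 85), as did 86.1% of such macrophages (99 of 115) and 52.5% of such neutrophils (63 of 120), beside the 79.6%, 78.2% and 39.3% of all cells of these types. Of the 10 mast cells with an Alox5 read, 0 had an Alox5ap read.

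**Figure D3:**
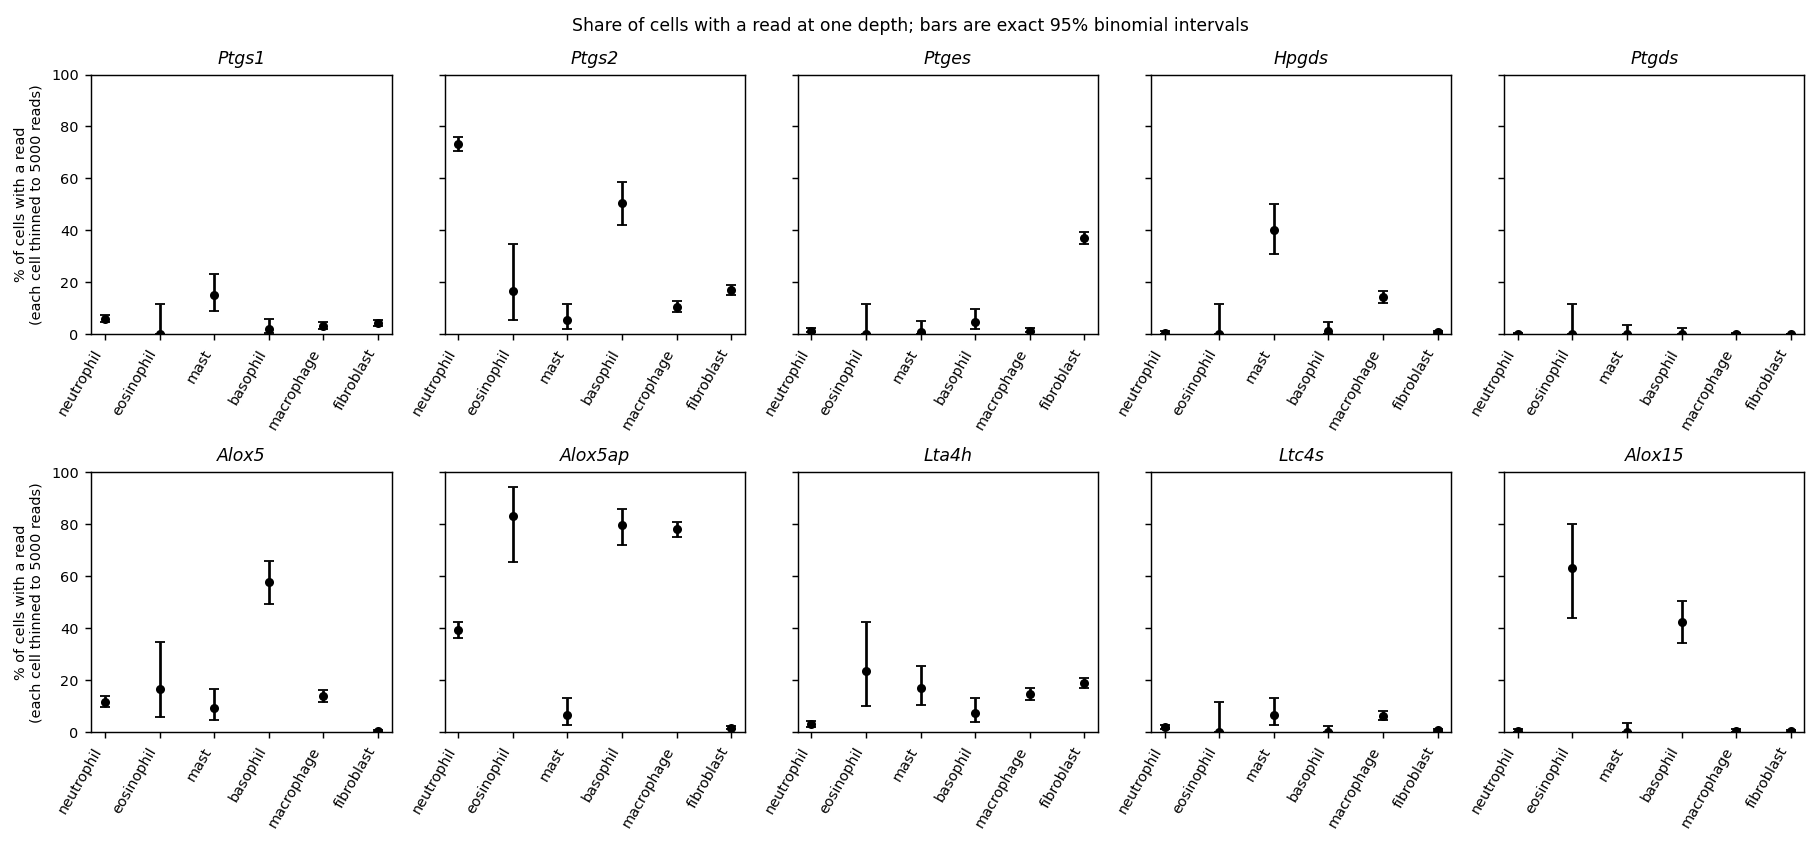
Share of cells, in percent, with a read of each gene in each gated type after thinning to 5000 reads the cells that had at least as many, with points for shares over all pools and bars for exact 95% binomial intervals. Ptgs2 reached 73.4% of neutrophils, Alox5 57.8% of basophils and Hpgds 40.2% of mast cells, and Alox5ap was found in over 3 in 4 eosinophils, basophils and macrophages but in 6.54% of mast cells. The eosinophil points rest on 30 cells of a gate that also carried macrophage and dendritic cell markers.

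Lta4h is the hydrolase that makes leukotriene B4. Fibroblasts had 53.5, 83.9, 55.5 and 56.8 CPM in the pools of WT day 3 and day 5 and of Ccr2-/- day 3 and day 5, and macrophages 37.4, 72.3, 32.6 and 41.2. Mast cells had 58.7 to 68.3 CPM in the tested pools, basophils 15.9 to 33.7 and neutrophils 13.5 to 31.9. No step between neighbours in the order of levels passed for this gene. Eosinophils had 83.9 CPM in WT day 3, 482 in Ccr2-/- day 3 and 171 in Ccr2-/- day 5, from 84 reads in 10 cells over all pools. They were called higher (1.58 ± 0.40, adjusted p = 0.0248), a call lost under 5 of 10 alternatives.

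Ltc4s, the synthase of leukotriene C4, was low throughout. Macrophages had 18.0 CPM in WT day 3, 18.5 in WT day 5, 19.6 in Ccr2-/- day 3 and 76.2 in Ccr2-/- day 5, so 1 pool stood above the other 3. Mast cells had 0 CPM in both WT pools, 14.6 in Ccr2-/- day 3 and 42.5 in Ccr2-/- day 5, from 11 cells, 1 of which gave 42.9% of the reads. Neutrophils had 11.8 to 19.0 CPM from 23 of 1126 cells. Ltc4s was called higher in macrophages (4.57 ± 0.96, adjusted p = 0.00311) and in neutrophils (3.45 ± 1.18, adjusted p = 0.0374). The mean of the other types included eosinophils, with 0 reads, and basophils, with 6 reads, and the size of both fold changes depends on these. Over all pools macrophages had 24.6 CPM, mast cells 21.3 and neutrophils 13.7. The step from macrophages to mast cells did not pass (edgeR, 1.13 ± 0.99, adjusted p = 0.62, where 8.11% of all genes differed). The macrophage call was lost without the Ccr2-/- day 5 pool (adjusted p = 0.0573), and the neutrophil call under 4 of 11 alternatives. In mast cells the fold change did not pass. In eosinophils there were 0 reads among 585603, where the floor of 3 reads stands at 5.12 CPM. Lymphatic endothelial cells, outside the 6 types, had 71.4 CPM. The antisense gene Gm26542 touches an exon of Ltc4s and had 215 reads beside 3872.

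Alox15, the 12/15-lipoxygenase that adds oxygen at another carbon of arachidonic acid, lay in eosinophils and basophils. Eosinophils had 30.0 CPM in WT day 3, 672 in the 3 cells of WT day 5, 3436 in Ccr2-/- day 3 and 2190 in Ccr2-/- day 5. The summed macrophage markers of these cells were 4114 CPM in WT day 3 and 780 to 804 in the Ccr2-/- pools. The dendritic cell markers were 7218 CPM in WT day 3, above the 3505 CPM of the eosinophil markers there, and 80.4 and 58.8 CPM in the Ccr2-/- pools of day 3 and day 5, and the part of other cells in the low WT day 3 value was not tested. Basophils had 152.8 CPM in WT day 3, 0 in the 2 cells of WT day 5, 332.3 in Ccr2-/- day 3 and 316.8 in Ccr2-/- day 5. Alox15 was called higher in eosinophils (7.10 ± 0.82, adjusted p = 3.79e-05) and basophils (4.86 ± 0.70, adjusted p = 6.46e-05). In the basophil cells 4 of 8 eosinophil markers had reads, summed to 48.4 CPM. Prg2, Ear1 and Ear6 were at 0 there, and so was Epx, which had no reads in the eosinophil gate either. The part of eosinophil RNA in the basophil value was not tested. Of the 62 basophils with an Alox15 read at 5000 reads per cell, 82.3% also had an Alox5ap read, beside 79.6% of all basophils. Alox15 was lower in fibroblasts (-5.16 ± 1.11, adjusted p = 9.55e-04), macrophages (-4.16 ± 1.01, adjusted p = 0.00778) and neutrophils (-3.30 ± 1.17, adjusted p = 0.0432). The macrophage call was lost under 3 and the neutrophil call under 5 of 11 alternatives.

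Clustering in place of gating gave a larger set of Alox15 cells. A Leiden cluster of 274 cells, which stayed unnamed and was led by Ccl6, Retnlg and Alox15 itself, held 49 of the 59 gated eosinophils. Its Alox15 level was 1026 CPM in WT day 3 (59 cells), 1212 in WT day 5 (19 cells), 1673 in Ccr2-/- day 3 (85 cells) and 1907 in Ccr2-/- day 5 (111 cells). As Alox15 was among the genes clustered, these values are a description. The same cells had 1327 CPM of Alox5ap and 226.5 CPM of Lta4h over all pools, beside 7.96 CPM of Ltc4s.

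**Figure D4:**
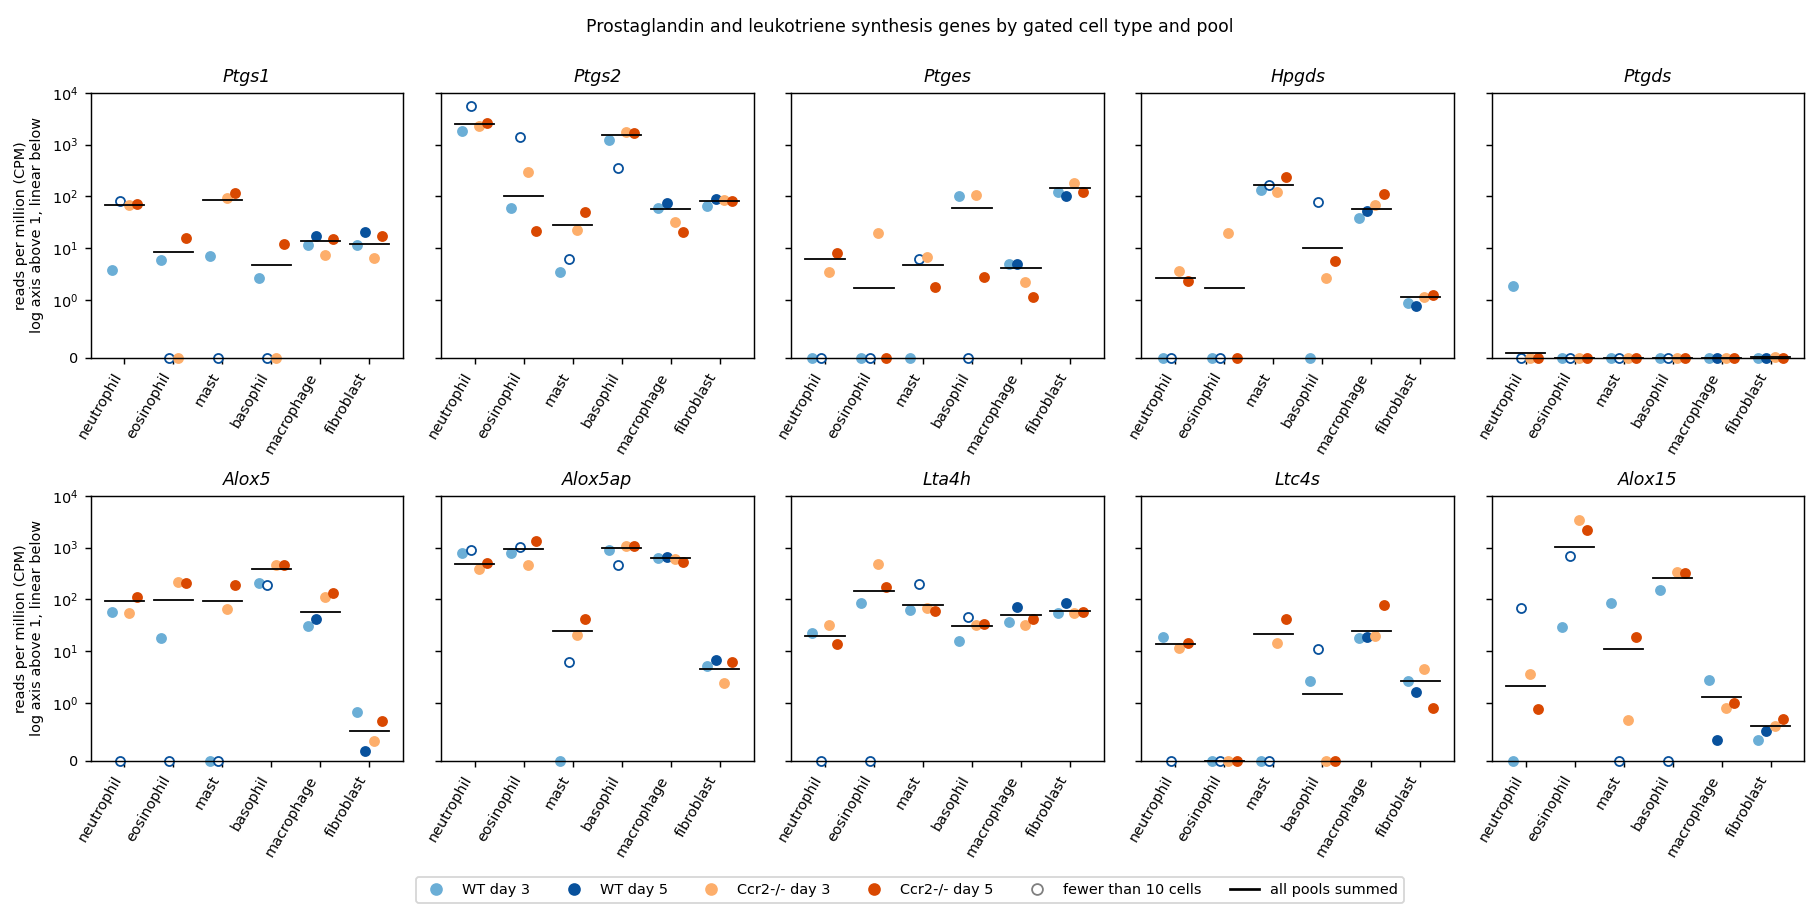
Level of each gene in CPM (log axis above 1 and linear below) in each gated type, with 1 point per pool and a line at the level of all pools summed; open points are pools with fewer than 10 cells. The Ptgs2 points of neutrophils and basophils lie above 1000 CPM except for the 2 cells of WT day 5 (358 CPM), and the Ptgds panel is nearly empty.

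Of the 45 steps between neighbours in the order of levels, over the 9 genes tested, 4 passed. The order was taken from the same levels. The share of all genes that differed between the same pairs of types was 5.13 to 44.8%.

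The design also asks whether the genes differed between Ccr2-/- and WT mice within a cell type. Macrophages and fibroblasts had at least 20 cells in every pool, and they were fitted with day as covariate on 4 sums, which leaves 1 residual degree of freedom. An exact permutation of 2 pools against 2 cannot go below p = 0.33. In macrophages Alox5 was called: it had 30.0 CPM in WT day 3 and 41.8 in WT day 5, against 112.0 in Ccr2-/- day 3 and 132.2 in Ccr2-/- day 5, so both Ccr2-/- pools lay above both WT pools. The difference was 1.82 ± 0.21 on the log2 scale (edgeR, adjusted p = 0.0478), and 0.379% of all genes were called in either direction. The call was lost at a hashtag ratio of 10 (adjusted p = 0.134), with a stricter gate (0.0689), with Leiden clusters (0.0577), and without the Ccr2-/- day 3 (0.114) or the Ccr2-/- day 5 pool (0.160), while the difference stayed between 1.65 and 1.91 in these fits.

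No other member passed in macrophages. Hpgds had 69.1 and 109.4 CPM in the Ccr2-/- pools beside 38.3 and 52.0 in WT, with a difference of 1.0 ± 0.21 and an adjusted p of 0.118. Ptgs2 had 32.3 and 20.9 CPM in the Ccr2-/- pools beside 59.6 and 74.3 in WT, with -1.31 ± 0.31 and an adjusted p of 0.143. Ptges showed 2.19 and 1.16 CPM in the Ccr2-/- pools beside 4.96 and 5.06 in WT, with -1.58 ± 0.72 and an adjusted p of 0.337. Alox5ap differed by -0.12 ± 0.17.

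The macrophage gate did not hold the same cells in each pool. It held 325, 359, 97 and 68 cells, in the order WT then Ccr2-/- and day 3 before day 5. Cells with Ly6c2, the monocyte marker, but without C1qa, a mature macrophage marker (each at 200 CPM), numbered 101, 5, 15 and 4, and cells with C1qa but without Ly6c2 numbered 115, 235, 73 and 44. The dendritic cell markers summed to 1555 and 1451 CPM in the WT pools and to 679 and 750 in the Ccr2-/- pools. Over all pools Alox5 stood at 2.51 CPM in Ly6c2 cells and 87.5 in C1qa cells. Hpgds stood at 13.9 and 80.6 CPM, and Ltc4s at 1.03 and 39.5. Ptgs2 went the other way, with 154.7 and 32.4 CPM, and Alox5ap had 696 and 609.

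Among C1qa cells without Ly6c2 alone, Alox5 had 69.1 CPM in WT day 3, 52.5 in WT day 5, 126.5 in Ccr2-/- day 3 and 171.8 in Ccr2-/- day 5. The difference between genotypes in these cells, a comparison added after the data were seen, was 1.33 ± 0.25 (edgeR, adjusted p = 0.0408), smaller than in the whole gate and again with both Ccr2-/- pools above both WT pools. Hpgds had 80.0, 61.8, 79.9 and 147.9 CPM and Ptgs2 13.2, 55.5, 15.9 and 10.5, with genotypes that overlapped for Hpgds and for Ptgs2. Alox5 also differed between Leiden clusters of macrophages, with 122.9 CPM over all pools in the cluster led by C1qa, C1qc and Pf4. It had 21.5 CPM in the cluster led by Mrc1, Ctss and Lgmn, and 4.69 in that led by Lyz2, Plac8 and Ly6c2. The part of the cluster mix of C1qa cells in the Alox5 difference was not tested. Basophil markers summed to 2.42 to 4.32 CPM in the macrophage pools, and the part of other cells in the Alox5 difference was not tested.

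**Figure D5:**
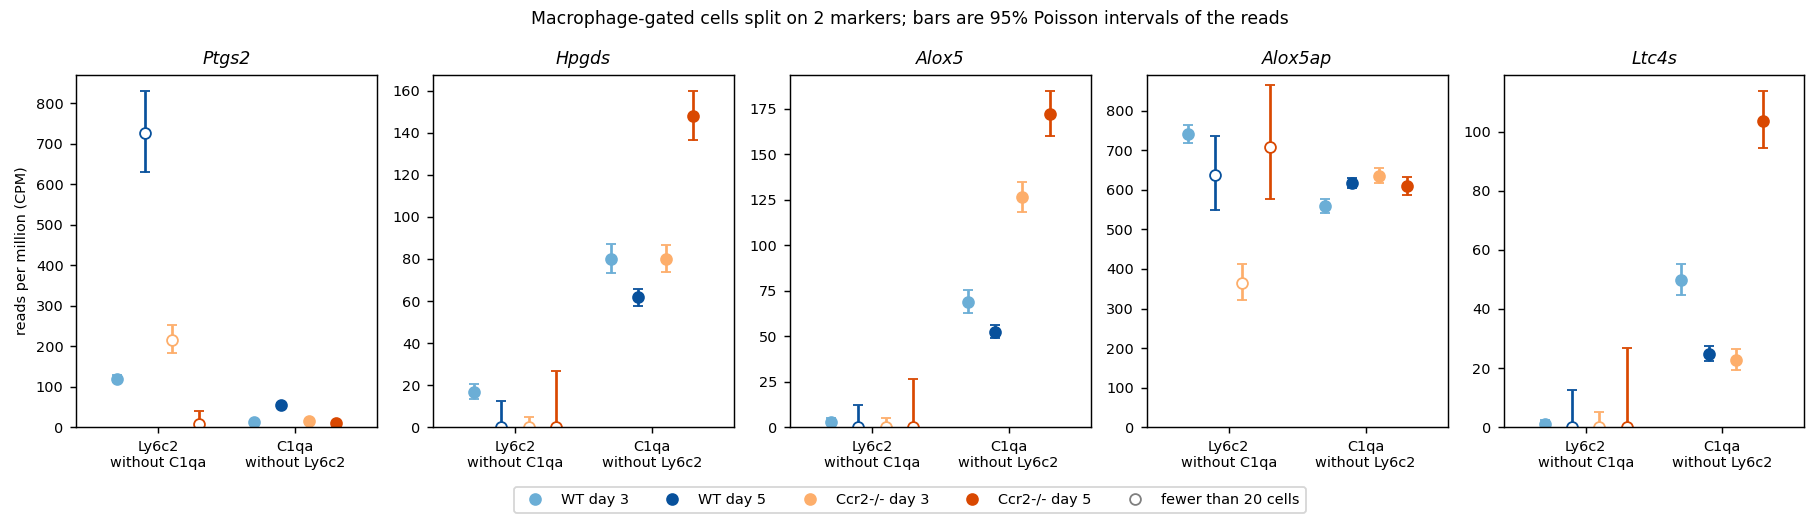
Levels (CPM) of 5 genes in macrophage-gated cells split by the markers Ly6c2 and C1qa, with 1 point per pool and exact 95% Poisson intervals of the reads; open points are pools with fewer than 20 cells. Over all pools Alox5 (2.51) and Ltc4s (1.03) are low in Ly6c2 cells, and among C1qa cells the Ccr2-/- points of Alox5 (126.5 and 171.8) lie above the WT points (69.1 and 52.5).

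In fibroblasts no member was called between genotypes and no gene at all (0 of the genes tested, 3650 at an unadjusted p under 0.05, 1338 by DESeq2). Ptges had the lowest adjusted p among the members, at 184.5 and 123.2 CPM in Ccr2-/- beside 123.0 and 100.4 in WT (0.46 ± 0.12, adjusted p = 0.174). The difference between genotypes in macrophages minus that in fibroblasts was -2.0 ± 0.34 on the log2 scale for Ptges and -1.42 ± 0.31 for Ptgs2, and neither passed (edgeR interaction term, adjusted p = 0.204 and 0.303, and 0.00337 and 0.0134 by DESeq2). That test called 0 of 18835 genes, with 1595 at an unadjusted p under 0.05 and 322 by DESeq2.

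Between days 0 genes passed in macrophages (1212 at an unadjusted p under 0.05, 88 by DESeq2) and 0 in fibroblasts (1562, and 226 by DESeq2). Ptgs1 in fibroblasts stood at 11.4 and 6.58 CPM on day 3 and at 20.9 and 17.1 on day 5 (WT and Ccr2-/-), a difference of 1.13 ± 0.21 with an adjusted p of 0.527.

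Partner enzymes could also be followed within cells. Of fibroblasts at 5000 reads per cell, 273 had a Ptgs2 read and 598 a Ptges read, and 111 had both, that is, 40.7% of the first and 18.6% of the second, beside 37.1% of all these fibroblasts with a Ptges read and 16.9% with a Ptgs2 read. Of macrophages with an Ltc4s read, 72.6% had an Alox5ap read (37 of 51), beside 78.2% of all these macrophages.

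Other genes of the pathways, listed by role, covered 46 genes of the matrix, of which 36 were tested. Fibroblasts had 15 called higher and 4 lower, where 31.2% and 6.74% of all genes were. Macrophages had 12 and 0 (13.2% and 2.07% of all genes), and neutrophils 6 and 3 (16.8% and 8.72%), the latter near the background. Basophils had 4 and 0 (5.59% and 1.45%), mast cells 1 and 2 (6.5% and 2.58%) and eosinophils 1 and 1 (2.15% and 4.03%). In neutrophils 4 of the 5 leukotriene and lipoxin receptors tested were called higher, beside 16.8% of all genes. Fpr2, a formyl peptide and lipoxin A4 receptor, had 1113 CPM there (7.29 ± 0.58, adjusted p = 8.11e-09), and Ltb4r1, the high-affinity leukotriene B4 receptor, had 121.6 CPM (3.15 ± 0.58, adjusted p = 3.70e-04). Cysltr1, a cysteinyl leukotriene receptor, had 101.0 CPM in macrophages (4.93 ± 0.63, adjusted p = 1.52e-05), where it was called higher, as it was in neutrophils, and it was called lower in mast cells and fibroblasts.

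In fibroblasts 31.2% of all genes were called higher. The median log2 fold change there was 1.06 over the 36 pathway genes tested and 0.84 over all genes tested. The fibroblast calls included genes of synthesis, breakdown and reception of prostanoids. Ptgis, the prostacyclin synthase, had 134.4 CPM in fibroblasts (4.92 ± 0.64, adjusted p = 5.77e-06). Hpgd, which inactivates prostaglandins, had 162.3 CPM (5.92 ± 0.84, adjusted p = 2.26e-05), and Slco2a1, the transporter that takes them up, had 109.0 CPM (2.97 ± 0.50, adjusted p = 1.03e-04). Of the 7 prostanoid receptors tested, 5 were higher in fibroblasts, where 31.2% of all genes were. Of the enzymes downstream of leukotriene C4, Ggt5 and Dpep1 were higher there too, at 79.5 and 75.4 CPM, as was the glutathione transferase Mgst3 at 226.4 CPM. The Ggt5 call was lost without the Ccr2-/- day 3 pool.

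In macrophages Akr1b3 (181.0 CPM), Ptgr1 (89.8 CPM), which acts in the breakdown of prostaglandins and leukotriene B4, and Prxl2b (76.8 CPM), a prostamide and prostaglandin F synthase, were higher. The Akr1b3 call was lost under 5 of 11 alternatives. In basophils the lipoxygenase Alox8 had 91.7 CPM (4.14 ± 0.47, adjusted p = 2.81e-06) and Akr1c18 135.3 CPM, the latter in 7.38% of cells and not called without the Ccr2-/- day 5 pool. Pla2g4a, the cytosolic phospholipase A2 that releases arachidonic acid, was called higher in eosinophils, at 157.1 CPM from 92 reads (2.18 ± 0.49, adjusted p = 0.0137), a call lost without either Ccr2-/- pool.

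The genes whose levels followed each member most closely over the 20 sums of type and pool were ranked by Pearson's r of log2(CPM + 1), as a description. The sums share pools, and types differ in depth. For Ptgs2 they were Zfp607a (r = 0.907), Kcnj2 (0.901) and Runx2 (0.889), and for Ptges Tgfb2 (0.972), Adgra2 (0.944) and Tmem45a (0.929). For Hpgds they were Unc13b (0.878), Tmem144 (0.872) and Syngr1 (0.864), for Alox5 Napsa (0.911), Pik3cd (0.895) and Crlf2 (0.895), and for Alox5ap Cd84 (0.971), AB124611 (0.945) and Arl4c (0.941). Alox15 was followed by Dnaja1 (0.888), P2ry10 (0.884) and Itga2 (0.88), and Ltc4s by Gpr137b (0.84), Mpp5 (0.811) and Cyp4v3 (0.792). Ptgs1 and Lta4h had values of 0.777 for Eml4, 0.774 for Stxbp5 and 0.755 for Zfp142, and of 0.864 for Zc3h11a, 0.854 for Oaz1 and 0.848 for Cpsf6.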

How the data were processed

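The authors deposited read counts per gene and cell barcode, and read counts per hashtag. Per the labels, reads were processed with Cutadapt and Bowtie2 on GRCm38.p6, and barcodes were kept by a knee plot. The background correction that the study's methods describe was not visible in the deposited counts, of which 22.1% of the values above 0 were 1. The matrix held 548117598 reads in 35208 genes, 313 of them without a read.

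A cell was given to a pool where its top hashtag share was at least 3 times the next, with at least 10 hashtag reads, at least 200 genes and at most 20% mitochondrial reads. Barcodes with several hashtags (570) were left out, which removed doublets between pools, and no doublet caller was run. A further 9 hashtag columns were not used. Median reads per cell were 18632 to 48232 by pool.

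Cells were gated to 16 types by the mean z score of marker genes (over 0.5, 0.25 above the next list, at least 2 markers at 200 CPM), a rule set after the data were seen. Of the kept cells, 1740 passed no gate and 1438 fell into the other 10 types. Sums of at least 10 cells were tested with edgeR 4.0.16 (quasi-likelihood, TMM, filterByExpr, two-sided, Benjamini-Hochberg adjustment) in R 4.3.3. DESeq2 1.42.0, library sizes, no filter, a hashtag ratio of 10, a stricter gate, Leiden clusters (scanpy 1.11.5), leaving out cells over 100000 reads and leaving out each pool were alternatives. The fits were also run on counts simulated from their own dispersions with planted changes, which cannot check the spread between mice, PCR copies or the gates. All 10 genes were named, and other pathway genes where they were called higher in a type with at least 50 CPM, at most 15 by CPM. The 3 genes most like each member needed a mean of at least 10 CPM. Members, lists and markers were chosen with earlier results of these data known. Intervals are exact at 95%, and 3 reads were taken as a floor, which is not the limit of an interval.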

Additional observations from a re-analysis of the deposited data

Results flagged for a closer look

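The difference between genotypes of Ptges went in opposite directions in both days: lower in the Ccr2-/- pools among macrophages and higher among fibroblasts, with macrophage minus fibroblast at -2.0 ± 0.34 on the log2 scale (edgeR interaction term, unadjusted p = 6.59e-04, adjusted p = 0.204). The macrophage side rests on 97, 115, 19 and 7 reads. The share of cells did not go the same way among macrophages with C1qa and without Ly6c2. There, without thinning, 10.4 and 13.6% of cells had a Ptges read in WT (day 3 and day 5). In Ccr2-/- the shares were 20.6 and 13.6%.

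Barcodes that could be given to no pool stayed out of every comparison, and the genes had reads there too. These barcodes had too few hashtag reads or several hashtags, so doublets between pools may be among them, and their part was not tested. Ptgs2 stood at 1618 CPM in 51 such neutrophil-gated barcodes, Hpgds at 135.1 CPM and Ptgs1 at 475.4 CPM in 17 mast cell-gated barcodes (86.0 CPM of Ptgs1 in the mast cells of the 4 pools), Alox15 at 132.6 CPM in 23 basophil-gated barcodes and Ptges at 128.5 CPM in 436 fibroblast-gated barcodes.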

How the results depend on the processing

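Of 43 single results called, 27 were kept under each alternative tried. Over the 6 types 27 member calls were made, with 18 to 34 under the alternatives. Calls of a gene in a type, summed over the 6 comparisons, numbered 16399, and 7837 to 20827 when each pool was left out in turn, the lowest without Ccr2-/- day 3 and 8765 without Ccr2-/- day 5. In macrophages between genotypes 1 member was called, and 3 with DESeq2, 4 with no filter, 0 at a hashtag ratio of 10, with a stricter gate or with Leiden clusters, and 0 to 1 without single pools. Genes called there numbered 59, and 128 with library sizes, 665 with DESeq2, 1229 with no filter, 1 at a hashtag ratio of 10, 22 with a stricter gate, 27 with Leiden clusters, 302 in C1qa cells without Ly6c2 (added after the data were seen) and 0 to 253 without single pools (253 without WT day 3, 94 without WT day 5, 12 without Ccr2-/- day 3, 0 without Ccr2-/- day 5). In fibroblasts between genotypes DESeq2 called 1 member (Ptges) in place of 0, and the 0 genes became 1338 with DESeq2, 617 with no filter, 3 at a hashtag ratio of 10 and 0 to 190 without single pools (190 without WT day 3). Between days DESeq2 called 88 genes in macrophages, and 226 genes and 1 member (Ptgs1) in fibroblasts, in place of 0, and single pools left out gave 0 to 28 genes in fibroblasts (28 without Ccr2-/- day 5). For the difference between types DESeq2 called 2 members and 322 genes in place of 0. Alox15 in mast cells turned from 0.65 to -3.06 with Leiden clusters (adjusted p = 0.0154). The basophil Alox5ap level of 988 CPM became 1216 as the mean of the cells' CPM, 1111 with Leiden clusters and 1249 without cells over 100000 reads. The causes were not tested. Types were compared within pools and genotypes with day as covariate, and no block by replicate number could be fitted, since the pools carry none. With 1 pool per genotype and day, no p-value measures the spread between mice. In the comparison of types, the spread is that left between sums after the pool is taken out. Reads are not molecules, so counting intervals are too narrow. Types with few cells limit what can be seen: eosinophils had 585603 reads in all.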

Other observations

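In cells outside the 6 types, blood endothelial cells had 134.4 CPM of Ptgs1 (33.3% of 210 cells with a read), lymphatic endothelial cells 71.4 CPM of Ltc4s (22.7% of 119 cells), dendritic cells 691.3 CPM of Alox5ap (80.5% of 185 cells) and perichondrial cells 67.5 CPM of Ptges (34.6% of 159 cells). Cells that passed no gate had 141.6 CPM of Ptgs2, 122.9 of Ptges, 155.3 of Alox5ap and 20.7 of Alox15, the last in 12.8% of 1740 cells.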
